A study of Mus musculus with 12 samples.

Results

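The genes described here encode the proteins of the cytosolic ribosome and of the mitochondrial ribosome. They were taken by symbol from the deposited count table: every row starting with Rpl or Rps followed by a number or letter, without the Rps6k kinases, and every row starting with Mrpl or Mrps. This gave 156 of 15774 genes, of which 80 form the cytosolic set (by symbol 49 of the large and 31 of the small subunit) and 76 the mitochondrial set (47 and 29). The libraries were made from total RNA of cortical astrocytes, which had been isolated by fluorescence-activated sorting. The mice were wild-type C57BL/6J. In the stroke groups the distal middle cerebral artery was tied off for good, and both common carotid arteries were then closed for 7 min. In sham surgery the lesion was limited to the surface of the skull. The 6 groups are sham and days 1, 3, 7, 21 and 60 after stroke, with 2 libraries each. The marker used for the sort, the age of the mice and any pooling of animals are not given in the labels, so the p-values measure the spread between these libraries, which may be technical.

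A ribosome is built from ribosomal RNA and many proteins. The small subunit reads the messenger RNA, the large subunit joins the amino acids, and a stalk of acidic proteins on the large subunit draws in the elongation factors. Cytosolic ribosomal proteins are made from short, abundant messages whose first bases are usually a run of pyrimidines, through which the mTOR pathway controls their translation. The mitochondrial ribosome has its own proteins, which are also encoded in the nucleus, and it makes the few respiratory chain subunits encoded in mitochondrial DNA. Rps19bp1 matches the symbol rule but encodes a protein that binds a ribosomal protein, and Mrps36 is also known as a component of the oxoglutarate dehydrogenase complex. Both were kept as the rule has it and are in the counts of their sets. Ribosomal protein genes that the table does not list, such as Rpl3, Rpl30, Rps23 and Rps27, were not analysed here.

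Replicate 1 of each group held 13006008 to 16575045 counts and replicate 2 held 97056596 to 156128922, which is 6.30 to 9.63 times as many. All 17 astrocyte markers of the list reached 1 CPM (the count scaled to a common library total, with TMM factors) in each group, and together they took 0.851% to 1.07% of the counts in sham and 0.129% to 0.225% on day 7. The 12 fibroblast markers took 0.00869% and 0.00938% of the counts in the sham libraries, 8.28% and 20.1% on day 7, 3.23% and 5.04% on day 21, and 2.10% and 2.78% on day 60. The 15 neuron markers took 1.23% and 1.33% of the counts in sham against 0.0381% and 0.0207% on day 7, and the 13 oligodendrocyte markers 1.08% and 0.931% against 0.102% and 0.0463%. Microglia markers were between 0.0449% and 0.683% of the counts over all libraries and leukocyte markers between 0.00302% and 0.519%, both highest on days 3 and 7. Endothelial markers ranged from 0.0686% to 1.03% and mural cell markers from 0.0581% to 0.217%. In sham, the fibroblast markers Col6a3 and Dpt were under 1 CPM; the neuron marker Slc32a1 was under it in each stroke group, and Cd3e of T cells in every group. These shares did not all move at the same times: neuron markers were already at 0.0871% to 0.247% on days 1 and 3, and microglia markers were back at 0.0988% and 0.0717% on day 60, against 0.0727% and 0.0845% in sham. Their part in the results below was not tested. In sorted cells measured in bulk, fewer cells of a type and less RNA per cell cannot be told apart.

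The start of the transcript is shown for a few members because a pyrimidine run at that place is the usual mark of a cytosolic ribosomal protein message. Each window is 30 bases, 5′ to 3′, centred on the transcript start that RefSeq annotates on GRCm38.p6. Capitals mark the bases of the window that lie in a C followed by at least 6 bases that are each C or T. The members were picked to show both sets with and without such a run. Those shown with a run are members named below for a drop, and those without it are members named below as higher. The picks therefore say nothing of a link between the run and the change, for which the medians over the cytosolic set are given below.
Rpl38 (chr11:114668565-114668594, plus strand): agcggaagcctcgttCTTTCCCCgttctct
Rps21 (chr2:180257364-180257393, plus strand): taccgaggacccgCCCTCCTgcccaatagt
Rpl13a (chr7:45128731-45128760, minus strand): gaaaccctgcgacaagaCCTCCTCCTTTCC
Rpl7l1 (chr17:46782642-46782671, minus strand): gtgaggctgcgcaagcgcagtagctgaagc
Mrps33 (chr6:39810922-39810951, minus strand): ttccgCCTCTCTCCTgctctctggagctgg
Mrps21 (chr3:95871500-95871529, minus strand): gCTTCCTCCCgtcgcgggactccgtagctt
Mrps6 (chr16:92058321-92058350, plus strand): tgctttcgccgtccgggagctgaccggccg
Mrps27 (chr13:99344771-99344800, plus strand): ccacgcccgccttccacttggtgcgctcca
The windows of Rpl38 and Rps21 hold the run near the annotated start, and those of Rpl7l1, a paralog of Rpl7, and of Mrps6 and Mrps27 hold none.

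The same search was made within 25 bases on either side of the annotated start. Of the 62 cytosolic members with a RefSeq promoter, 32 (51.6%) held such a run on the strand of the transcript, as did 18 of 67 mitochondrial members (26.9%) and 6123 of 27025 promoters of all genes (22.7%). On the opposite strand the shares were 16.1%, 14.9% and 25.1%. On day 7 the median log2 fold change against sham was −2.46 over the 32 cytosolic members with the run and −2.55 over the 30 without it. A match describes these letters alone, and a window with no match says nothing of how the message is controlled.

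Both sets made up small shares of the counts. Cytosolic ribosomal protein genes took 0.617% and 0.681% of the counts in the sham libraries, 0.345% and 0.537% on day 1 and 0.628% and 0.593% on day 3. They took 0.161% and 0.146% on day 7, 0.155% and 0.179% on day 21, and 0.266% and 0.183% on day 60. Each of the 6 libraries of days 7 to 60 lay below each of the 6 earlier ones. The mitochondrial set took 0.377% and 0.311% in sham, 0.330% and 0.369% on day 1 and 0.388% and 0.403% on day 3, then 0.163% and 0.136% on day 7, 0.167% and 0.161% on day 21, and 0.280% and 0.175% on day 60. Here too the libraries of days 7 to 60 lay below the earlier ones, and day 60 replicate 1 came closest to them. The ratio of mitochondrial to cytosolic counts was 0.534 ± 0.110 in sham, 0.821 ± 0.189 on day 1, 0.649 ± 0.0438 on day 3, 0.971 ± 0.0608 on day 7, 0.985 ± 0.127 on day 21 and 1.01 ± 0.0672 on day 60 (mean ± SD, n = 2). In these counts the cytosolic set thus went from the larger share in sham to about the same share as the mitochondrial set from day 7 on. The cytosolic counts lack the genes that the table does not list and carry the limit on shared sequence given below.

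**Figure D1:**
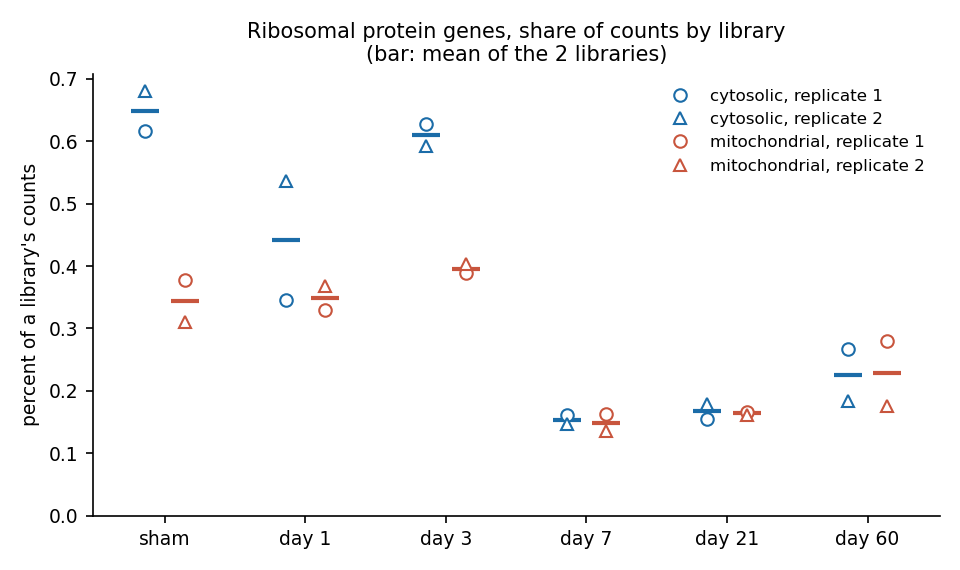
Share of each library's counts (percent, linear axis from 0) that falls on the 80 cytosolic and the 76 mitochondrial ribosomal protein genes, for replicate 1 (circles) and replicate 2 (triangles) of each group, with bars at the mean of the 2. The cytosolic share is 0.593% to 0.681% in the sham and day 3 libraries and 0.146% to 0.266% from day 7 on.

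The levels of single members, and with them these sums and their ratio, are hard to read. Many cytosolic ribosomal protein genes have processed copies elsewhere in the genome. In the GENCODE transcripts of the same build, a median of 54.5% of the windows of 50 bases of a cytosolic member occur unchanged in the transcripts of another gene, against 0% for the mitochondrial set. The share was 50% or more for 47 of 80 cytosolic and 2 of 76 mitochondrial members. It was 3.0% for Rps3, and 92.1% for Rpl10 and 88.1% for Rpl10a. How the authors treated reads that match several genes is not given in the sources used here. Levels of members with a large shared part are therefore uncertain, and so are the sums that include them. Per kb of transcript, the median level over all libraries was 26.1 CPM per kb for the 11 cytosolic members with under 20% shared, 17.0 CPM per kb for the other 69, and 23.1 CPM per kb for the mitochondrial set. Across the 80 cytosolic members, Spearman's rho between shared part and level per kb was −0.23, as a description over genes that share libraries and depth.

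**Figure D2:**
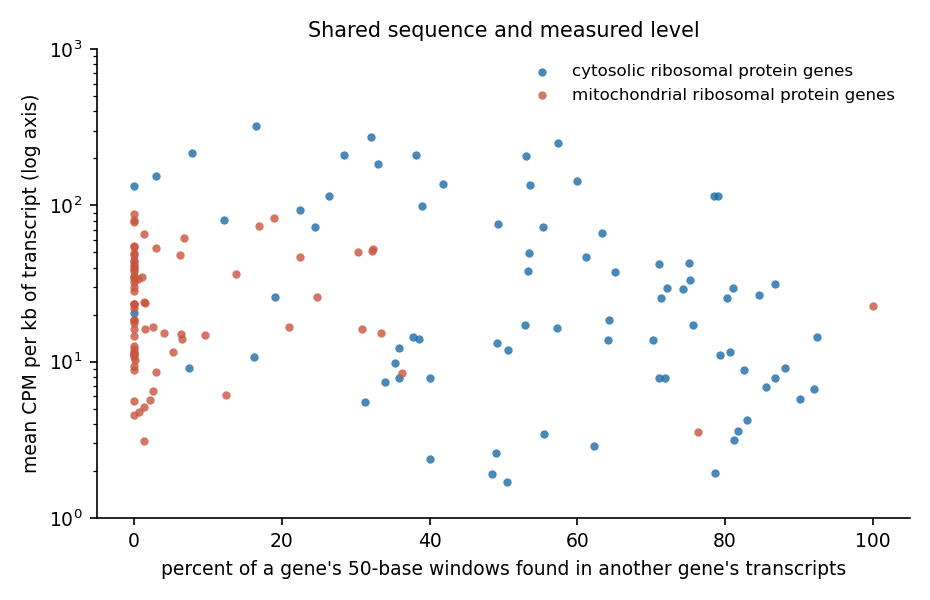
Mean CPM per kb of transcript over the 12 libraries (log axis) against the percent of a gene's windows of 50 bases that occur in transcripts of another gene, 1 point per member, without Rpl39l and Rpl3l, which had almost no counts. Most mitochondrial members sit near 0% and most cytosolic members above 20%, with Rpl4 highest at 320 CPM per kb.

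All 156 members passed the filter on low counts, among 15635 genes tested. Against sham, cytosolic ribosomal protein genes were lower on days 7, 21 and 60, with a smaller drop on day 1 and almost none on day 3. On day 1, 20 of 80 passed an adjusted p of 0.05 (19 lower, 1 higher), beside 13.9% of all genes lower and 16.7% higher, and the median log2 fold change was −0.89 against 0.06 over all genes. On day 3, 1 of 80 passed, beside 32.2% of all genes, and the median was −0.10. On day 7, when 43% of all genes passed, 57 of 80 were lower (19.8% of all genes), on day 21 58 (15.4%) and on day 60 45 (14.8%), and no higher member passed. The medians were −2.48, −2.37 and −2.13, while those over all genes were 0.13, 0.07 and 0.01. Both libraries of the group lay below both sham libraries for 69, 70 and 71 of the 80 members, against 36%, 35.4% and 34.3% of all genes. Large and small subunit genes by symbol had like shares: on day 7, 35 of 49 and 22 of 31 were lower, with medians of −2.48 for each. The 31 include Rps19bp1, which is not a ribosomal protein gene. It was lower on day 21 (−1.53 ± 0.46, adjusted p = 0.029) and did not pass on day 7 (−1.09 ± 0.46, adjusted p = 0.079).

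Leaving out 1 library changed some of these counts, with fewer samples in the fit. The share of all genes called in these reduced fits is not given here, so a loss cannot be read as particular to these members. On day 1 the 20 calls became 1 without day 1 replicate 1, 3 and 4 without sham replicates 1 and 2, 11 without either day 21 library, and 13 without either day 7 library. On day 3 the single call became 4 without either day 1 library and 2 without day 60 replicate 1. On day 7 the 57 became 37 without day 7 replicate 1, on day 21 the 58 became 32 without day 21 replicate 1, and on day 60 the 45 became 19 without day 60 replicate 2 and 27 without sham replicate 2. With the replicate number as a block, 35 passed on day 1 (33 lower, beside 19.8% of all genes in that fit) and 9 on day 3 (6 higher, and 3 lower beside 19.1%).

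**Figure D3:**
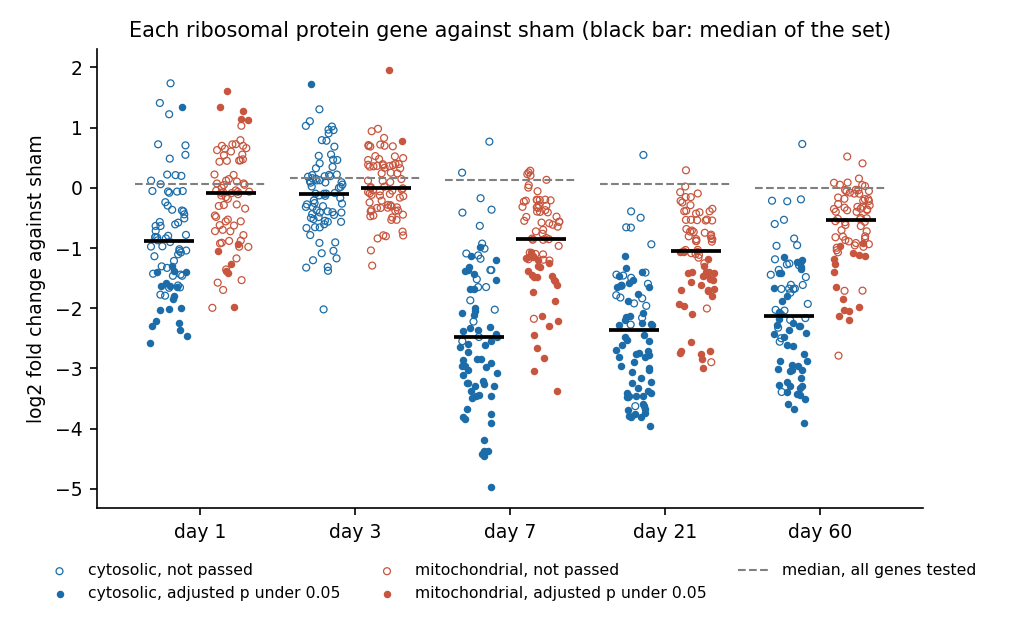
Log2 fold change against sham of each member (points, jittered sideways), filled where the adjusted p was under 0.05, with black bars at the median of each set and dashed lines at the median of all genes tested. Rpl39l and Rpl3l are not drawn. The cytosolic median falls from −0.10 on day 3 to −2.48 on day 7, the mitochondrial median from −0.01 to −0.85.

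The members with the largest drops were of both subunits. Rpl38, a large-subunit protein, was at 62.7 and 87.1 CPM in sham, 11.7 and 19.7 on day 1, 62.5 and 32.9 on day 3, 2.96 and 3.85 on day 7, 4.48 and 5.17 on day 21, and 5.96 and 4.14 on day 60. Its level fell on day 1, was near sham in 1 of the 2 day 3 libraries, and stayed far below sham from day 7. The log2 fold change was −2.25 ± 0.44 (SE) on day 1 (adjusted p = 0.0055), −0.65 ± 0.42 on day 3 (adjusted p = 0.26) and −4.45 ± 0.48 on day 7 (adjusted p = 0.00013). Rps21, a small-subunit protein, was at 114 and 193 CPM in sham and 9.06 and 42.4 on day 1, then 55.9 and 62.6 on day 3, 5.98 and 10.7 on day 7, 8.07 and 13.9 on day 21 and 11.2 and 12.8 on day 60. Every library after stroke lay below both sham libraries. The change was −2.58 ± 0.65 on day 1 (adjusted p = 0.015) and −4.19 ± 0.70 on day 7 (adjusted p = 0.0011); on day 3 it was −1.38 ± 0.62 (adjusted p = 0.12). The day 1 call was lost without day 1 replicate 1 (adjusted p = 0.051) and without sham replicate 2 (0.075).

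Rpl31, which lies near the exit of the tunnel for the new protein chain, had the widest range of group means of log2 CPM with a prior count of 2, at 4.61. It was at 60.4 and 90.9 CPM in sham, 4.0 and 23.4 on day 1, 13.5 and 23.8 on day 3, 1.75 and 5.19 on day 7, 2.97 and 8.20 on day 21, and 6.13 and 9.37 on day 60. All libraries after stroke were below sham, and the change was −2.46 ± 0.84 on day 1 (adjusted p = 0.049), −2.02 ± 0.82 on day 3 (adjusted p = 0.086) and −4.42 ± 0.92 on day 7 (adjusted p = 0.0034). The day 1 call was lost without any of 9 libraries (adjusted p of 0.050 to 0.18) and remained without day 1 replicate 2 and each day 7 library, and the day 3 value passed with the replicate block (adjusted p = 0.0045). Rps29, a small-subunit protein, was at 3.0 and 2.17 CPM on day 1 against 18.5 and 8.08 in sham, a change of −2.36 ± 0.78 (adjusted p = 0.043). That call was lost without any of its 4 libraries or either day 21 library (adjusted p of 0.055 to 0.24). For Rps29 (18.5 and 8.08 CPM in sham, 1.41 and 0.512 on day 7), Rps28 (8.66 and 12.7 in sham, 0.952 and 0.60 on day 21) and Rpl36 (38.0 and 34.2 in sham, 1.81 and 1.70 on day 7) the groups did not overlap either. Their log2 fold changes were −3.84 ± 0.84, −3.81 ± 0.68 and −4.36 ± 0.57 at those times, with adjusted p of 0.0046, 0.0025 and 0.00032. Rpl35a had the largest drop on day 7, −4.97 ± 1.66 (adjusted p = 0.034), from 5.61 and 46.2 CPM to 0.873 and 0.791, and its sham libraries differed widely. That call was lost without sham replicate 2 (adjusted p = 0.22) and without either day 7 library (adjusted p = 0.13 and 0.15). Rpl35 was lowest on day 60, at 1.09 and 1.39 CPM against 11.8 and 18.2 in sham (−3.58 ± 0.61, adjusted p = 0.0023).

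The most abundant members had smaller log2 changes. Rpl4, a core large-subunit protein, was at 737 and 908 CPM in sham, 513 and 700 on day 1, 458 and 655 on day 3, 278 and 382 on day 7, 211 and 327 on day 21 and 383 and 359 on day 60. Its levels after stroke were below both sham libraries at each time, with changes of −1.32 ± 0.38 on day 7 (adjusted p = 0.018), −1.61 ± 0.38 on day 21 (adjusted p = 0.010) and −1.15 ± 0.38 on day 60 (adjusted p = 0.042). Rps3, which lines the entry path of the messenger RNA and shares only 3.0% of its windows with other genes, was at 474 and 609 CPM in sham and 165 and 212 on day 7 (−1.53 ± 0.42, adjusted p = 0.014). Rpl13a was at 585 and 707 CPM in sham and 106 and 327 on day 1 (−1.58 ± 0.51, adjusted p = 0.041), and at 113 and 144 on day 7 (−2.33 ± 0.53, adjusted p = 0.0054). Rpl8, which has 7.9% of its windows shared and was chosen after its values were seen, also fell on day 7, by 1.12 on the log2 scale (adjusted p = 0.024). The 11 cytosolic members with under 20% of windows shared had a median of −1.43 on day 7 with 7 lower, and the other 69 a median of −2.55 with 50 lower.

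The stalk proteins had changes of different size. Rplp0, the stalk base, was at 230 and 242 CPM in sham, 243 and 299 on day 1, 224 and 286 on day 3, 118 and 121 on day 7, 100 and 115 on day 21 and 143 and 120 on day 60, and it had one of the 3 narrowest ranges of the set on that log2 scale. Its change was 0.20 ± 0.30 on day 1 (adjusted p = 0.65) and −0.98 ± 0.30 on day 7 (adjusted p = 0.024). Rplp1, one of its acidic partners, was at 156 and 226 CPM in sham, 22.3 and 72.3 on day 1, 163 and 104 on day 3 and 15.7 and 18.2 on day 7, with changes of −2.01 ± 0.58 on day 1 (adjusted p = 0.026) and −3.49 ± 0.62 on day 7 (adjusted p = 0.0015). Rplp2, the other partner, was at 31.9 and 43.2 CPM in sham and 2.82 and 3.09 on day 7 (−3.67 ± 0.73, adjusted p = 0.0027). The difference between Rplp0 and its partners was not tested. The transcripts of Rplp1 and Rplp2 are 499 and 421 bases long, and that of Rplp0 is 1358.

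In the fit without the block, 2 cytosolic calls were higher than sham, and both are near copies of a ribosomal protein gene. Rpl7l1, the paralog of Rpl7, was at 76.3 and 49.1 CPM in sham, 208 and 109 on day 1, 128 and 89.6 on day 3, 128 and 85.7 on day 7, 111 and 72.5 on day 21 and 114 and 93.1 on day 60. Its day 1 libraries lay above both sham libraries, with a change of 1.34 ± 0.44 (adjusted p = 0.041). That p is close to the threshold, and the call was lost without each of the 12 libraries except day 1 replicate 2, with adjusted p of 0.051 to 0.30. With DESeq2 size factors its adjusted p was 0.061 and after the length correction described below 0.055. On days 7 and 21 Rpl7l1 had the smallest p of the higher members, 0.77 ± 0.43 (adjusted p = 0.17) and 0.55 ± 0.43 (adjusted p = 0.36), and the former passed with the replicate block (adjusted p = 0.018). Rpl7 itself was at 38.8 and 64.5 CPM in sham, 28.0 and 71.5 on day 1 and 16.1 and 29.5 on day 7 and passed at neither time (adjusted p = 0.97 and 0.19). Rps27l, the paralog of Rps27 and a known target of p53, was at 32.2 and 35.4 CPM in sham, 40.1 and 71.3 on day 1, 112 and 111 on day 3, 23.5 and 36.4 on day 7, 18.2 and 24.5 on day 21 and 31.4 and 26.5 on day 60. It peaked on day 3, where both libraries were above every other library, with a change of 1.72 ± 0.36 (adjusted p = 0.0063).

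Of the other near copies, Rpl22l1 was lower as Rpl22 was, and Rpl39l and Rpl3l had almost no counts. Rpl22 was at 58.4 and 59.6 CPM in sham and 22.8 and 22.3 on day 7 (−1.39 ± 0.38, adjusted p = 0.015), and its copy Rpl22l1 at 25.3 and 15.3 in sham and 4.63 and 2.70 on day 7 (−2.48 ± 0.56, adjusted p = 0.0051). Rpl36a (85.5% of windows shared) fell on day 7 by 2.96 ± 0.77 on the log2 scale (adjusted p = 0.011), and Rpl36al had a change of −1.36 ± 0.53 (adjusted p = 0.059). Rpl39 was at 15.2 and 12.1 CPM in sham and 1.88 and 1.49 on day 7 (−3.02 ± 0.62, adjusted p = 0.0033). Its copy Rpl39l had no count in sham and at most 0.557 CPM in any library, and Rpl3l had at most 0.657 CPM, so neither is given a fold. Rps4x, the X-linked form of a small-subunit protein, was at 27.6 and 41.2 CPM in sham, 66.6 and 72.9 on day 3 and 8.60 and 18 on day 7. Its changes of 1.02 ± 0.66 and −1.37 ± 0.67 did not pass (adjusted p = 0.26 and 0.12). Rpl10 and Rpl10a, with 92.1% and 88.1% of windows shared, passed at no time.

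**Figure D4:**
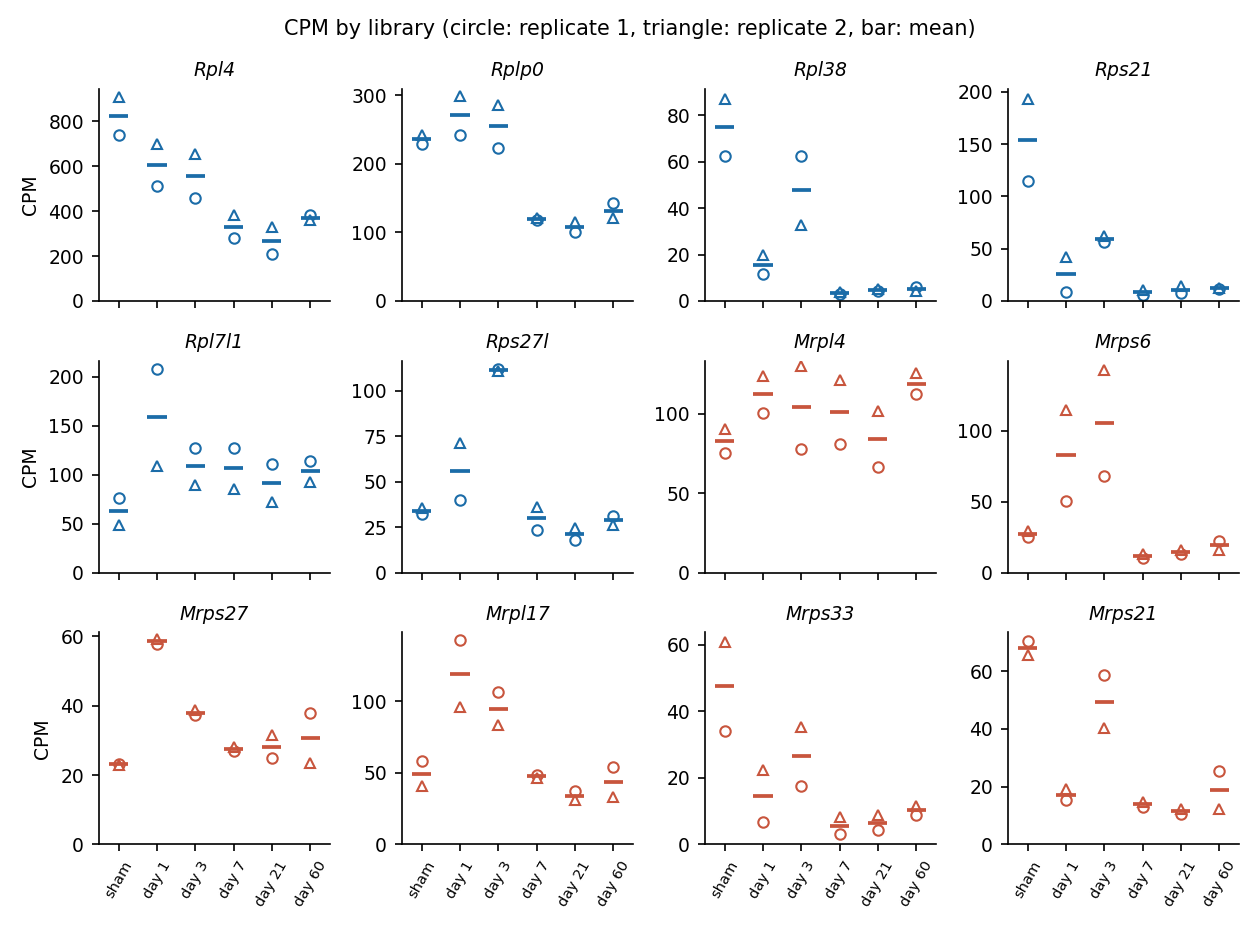
CPM in each library (linear axis from 0, separate for each gene) of 6 cytosolic (blue) and 6 mitochondrial (red) members, with circles for replicate 1, triangles for replicate 2 and bars at the mean. Rpl38 and Rps21 drop on day 1 and again on day 7, Rps27l peaks at 111 to 112 CPM on day 3, and Mrps6 is above sham on days 1 and 3 and below it on day 7.

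Mitochondrial ribosomal protein genes had calls in both directions on day 1, fewer than genes in general, and a larger share of lower calls than all genes on days 7 and 21. On day 1, 11 of 76 passed (5 higher, 6 lower) with a median log2 fold change of −0.08, beside 30.5% of all genes (16.7% higher, 13.9% lower), and with DESeq2 size factors 12 passed (3 higher, 9 lower). On day 3, 2 of 76 were higher, beside 18% of all genes. On day 7, 27 of 76 were lower, on day 21 30 and on day 60 15, with medians of −0.85, −1.05 and −0.54, beside the same backgrounds of 19.8%, 15.4% and 14.8% of all genes. On day 60 the share of the set, 19.7%, was near that of all genes. Both libraries lay below both sham libraries for 55, 63 and 39 members, again beside 36%, 35.4% and 34.3% of all genes. With the replicate block the counts on days 1, 3, 21 and 60 were 22, 7, 48 and 26, of which 15, 1, 48 and 26 were lower, beside 19.8%, 19.1%, 21.8% and 21.1% of all genes lower in that fit.

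These counts also changed when single libraries were left out, with fewer samples in the fit. Here too the share of all genes called in the reduced fits is not given, so a loss cannot be read as particular to the set. The 11 calls of day 1 became 2 without day 1 replicate 1, 1 and 2 without sham replicates 1 and 2, and 6 or 7 without a day 7 or day 21 library. The 2 of day 3 became 0 without day 3 replicate 2 or either sham library and 1 without each of the others. The 27 of day 7 became 13 and 14 without day 7 replicates 1 and 2 and 14 without sham replicate 1. The 30 of day 21 became 10 without day 21 replicate 1 and 15 without sham replicate 1. The 15 of day 60 became 3 without day 60 replicate 2, and 7 and 6 without sham replicates 1 and 2.

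Among the members that were higher early, Mrps6, a small-subunit protein with a bacterial homologue, stood out by size. It was at 25 and 29.3 CPM in sham, 50.8 and 114 on day 1, 68.2 and 142 on day 3, 10.7 and 13.2 on day 7, 13.2 and 16.1 on day 21 and 22.2 and 16.1 on day 60. Its level was above both sham libraries on days 1 and 3 and below both from day 7. The change was 1.60 ± 0.46 on day 1 (adjusted p = 0.025), 1.96 ± 0.47 on day 3 (adjusted p = 0.011) and −1.19 ± 0.46 on day 7 (adjusted p = 0.059). Exons of Mrps6 overlap those of Slc5a3, an inositol transporter gene on the same strand, and reads of the 2 genes may be shared. Without day 1 replicate 2 the day 1 value was 0.76 (adjusted p = 0.24), and without day 3 replicate 2 the day 3 value was 1.25 (adjusted p = 0.091). Both calls were also lost without either sham library (adjusted p of 0.052 to 0.13), and that of day 1 without day 21 replicate 1 (0.052).

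Mrps27, a small-subunit protein with pentatricopeptide repeats, was at 23.3 and 22.8 CPM in sham, 57.7 and 59.2 on day 1, 37.1 and 38.8 on day 3 and 27.0 and 28.1 on day 7. Both libraries of days 1, 3 and 7 lay close to each other, and day 1 was above sham by 1.34 ± 0.31 (adjusted p = 0.011), while on days 7 and 21 it had the smallest p of the higher members and did not pass (adjusted p = 0.53 and 0.50). The call on day 1 rested on 3 libraries: without sham replicate 1 or 2 or day 1 replicate 1 the adjusted p was 0.064, 0.062 and 0.051. Mrpl17, a large-subunit protein, was at 58.2 and 40.7 CPM in sham, 143 and 96.2 on day 1, 106 and 83.5 on day 3 and 48.8 and 46.4 on day 7, with a day 1 change of 1.27 ± 0.37 (adjusted p = 0.026). Without day 1 replicate 1, sham replicate 1 or sham replicate 2 its adjusted p was 0.17, 0.056 and 0.15. Mrpl15 was higher on day 3 by 0.78 ± 0.26 (adjusted p = 0.045), from 41.5 and 35.1 CPM to 64.6 and 66.8, and that call was lost without any 1 of the 12 libraries (adjusted p of 0.053 to 0.21).

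The lower members on day 1 were led by Mrps21, a small-subunit protein with a message of 405 bases. It was at 70.4 and 65.6 CPM in sham, 15.2 and 19.2 on day 1, 58.5 and 40.4 on day 3, 13 and 14.7 on day 7, 10.6 and 12.3 on day 21 and 25.5 and 12.2 on day 60. Like Rpl38 it was low on day 1, higher again on day 3 and low from day 7, with changes of −1.98 ± 0.40 on day 1 (adjusted p = 0.0061), −0.46 ± 0.38 on day 3 (adjusted p = 0.38) and −2.29 ± 0.40 on day 7 (adjusted p = 0.0014). Mrpl30 was at 81.2 and 89.2 CPM in sham, 22.1 and 43.2 on day 1 and 14.6 and 16.7 on day 7, and fell by 1.38 ± 0.41 and 2.45 ± 0.42 on the log2 scale (adjusted p = 0.029 and 0.0013). Mrpl34 was at 34.6 and 24.6 CPM in sham, 10.9 and 11.4 on day 1 and 40.7 and 29.3 on day 3 (−1.41 ± 0.45 on day 1, adjusted p = 0.038). The day 1 calls of Mrpl30 and Mrpl34 were lost without either sham library or day 1 replicate 1 (adjusted p of 0.067 to 0.18), and that of Mrpl34 also without day 1 replicate 2 or day 21 replicate 2 (0.071 and 0.057).

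From day 7 the largest drops that passed at each time were those of Mrps33, Mrps18c, Mrps36, Mrpl23, Mrpl33 and Mrpl52. Mrps33 was at 34.2 and 60.8 CPM in sham, 6.84 and 22.4 on day 1, 17.5 and 35.5 on day 3, 3.22 and 8.13 on day 7, 4.37 and 8.76 on day 21 and 8.99 and 11.6 on day 60, and the groups from day 7 lay below sham. Its changes were −3.05 ± 0.71, −2.85 ± 0.71 and −2.20 ± 0.69 (adjusted p = 0.0065, 0.012 and 0.035). Mrps18c was at 50.9 and 87.2 CPM in sham and 6.27 and 11 on day 21 (−2.99 ± 0.62, adjusted p = 0.0053). Mrpl33 and Mrpl52, with messages of 478 and 418 bases, were lower on day 60 by 2.13 and 2.05 on the log2 scale (adjusted p = 0.0061 and 0.011). Mrps36, the dehydrogenase component, was lower on day 7 (−3.38 ± 1.10, adjusted p = 0.031), at 0.336 and 2.55 CPM against 9.62 and 21.8. Mrpl23, which shares 76.4% of its windows with another gene, was lower on day 21 (−2.75 ± 0.77, adjusted p = 0.021).
Some of these calls were lost without 1 library: Mrps33 on day 7 without day 7 replicate 1 (adjusted p = 0.054), on day 21 without day 21 replicate 1 or sham replicate 2 (0.090 and 0.063) and on day 60 without any of its 4 libraries (0.056 to 0.156). Others were Mrps18c on day 21 without day 21 replicate 1 (0.051), Mrpl52 without day 60 replicate 2 or sham replicate 2 (0.062 and 0.060), Mrps36 without day 7 replicate 1 or sham replicate 2 (0.136 and 0.126) and Mrpl23 without any of its 4 libraries (0.064 to 0.135).

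Some mitochondrial members passed at no time, Mrpl4 among them. Mrpl4, the most abundant of the set by CPM, was at 75.5 and 90.6 CPM in sham, 100 and 124 on day 1, 77.8 and 130 on day 3, 81.1 and 121 on day 7, 66.7 and 102 on day 21 and 112 and 126 on day 60. Its changes ran from 0.02 ± 0.38 on day 21 to 0.52 ± 0.38 on day 60 (adjusted p = 0.97 and 0.32), and a change of either sign is not excluded at that error. Mrps9 and Mrpl44 were, with Mrpl4, the members with the narrowest range of group means of log2 CPM, at 21.2 and 28.6 and at 25.6 and 13.9 CPM in sham and 15.5 and 22.3 and 16.6 and 13.2 on day 7. Mrpl28 was at 133 and 124 CPM in sham and 60.7 and 81.8 on day 7 (−0.85 ± 0.40, adjusted p = 0.11). Mrpl12, which is also known to bind the mitochondrial RNA polymerase, was at 117 and 89.8 CPM in sham and 42.2 and 50.2 on day 7 (−1.16 ± 0.36, adjusted p = 0.024).

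The 3 mammalian relatives of 1 bacterial small-subunit protein, Mrps18a, Mrps18b and Mrps18c, did not share all calls. Mrps18a was at 120 and 124 CPM in sham, 48.9 and 74.5 on day 1, 39.1 and 54.3 on day 7 and 84.8 and 62.9 on day 60. It was lower on day 7 (−1.38 ± 0.36, adjusted p = 0.011) and day 21 (−1.71 ± 0.36, adjusted p = 0.0058), and its day 1 change of −0.98 ± 0.35 did not pass (adjusted p = 0.060). Mrps18b was at 15.8 and 19.2 CPM in sham and 33.9 and 43.9 on day 1, and was higher then (1.15 ± 0.39, adjusted p = 0.049), while its day 7 value of −0.86 ± 0.39 did not pass (adjusted p = 0.099). Mrps18c had a change of −1.53 ± 0.59 on day 1 (adjusted p = 0.073) and was lower on days 7, 21 and 60 (adjusted p = 0.0044, 0.0053 and 0.030). The differences between the 3 genes were not tested. Mrps24, whose exons overlap those of Urgcp on the same strand, had the smallest p of the lower members on day 3, −0.79 ± 0.34 (adjusted p = 0.10; 0.049 in DESeq2).

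Between neighbouring times the largest step was from day 3 to day 7. There 35 of 80 cytosolic and 12 of 76 mitochondrial members were lower, when 6.29% of all genes passed (3.22% lower, 3.06% higher), with medians of −2.34 and −0.90. With the length correction described below, the calls were 6 cytosolic and 7 mitochondrial. The share of all genes called in this step with that correction is not given here. Short transcripts of other genes fell in this step too. From 500 to 700 bases their median was −1.43, against −2.46 for cytosolic and −1.23 for mitochondrial members. Over the other genes, Spearman's rho of this change with length was 0.29. Rpl38 was 13.9-fold lower on day 7 than on day 3 (adjusted p = 0.0098), Rps27l 3.71-fold (adjusted p = 0.021), and Mrps6 8.83-fold (adjusted p = 0.013), the last 2 coming down from their highest level. The share of all genes called in each fit without 1 library is not given here. The cytosolic count depended on which libraries were in the fit. It was 2 without day 3 replicate 1, 0 without either day 7 library, 22 to 24 without day 3 replicate 2 or either day 21 library, and 0 with the 2 groups alone, yet 67 with the replicate block (18.2% of all genes called) and 59 with DESeq2 (16.7%). The mitochondrial count was 0 without either day 7 library, 1 without day 3 replicate 1, 3 to 6 without day 3 replicate 2 or any sham or day 21 library, 34 with the block and 30 with DESeq2.
From day 1 to day 3 the medians were 0.77 and 0.17, with 0 members of either set passing in edgeR (3.57% of all genes passed). At an unadjusted p of 0.05, 20 cytosolic and 7 mitochondrial members passed, beside 16.1% of all genes. In DESeq2 7 and 3 passed adjustment (9.03% of all genes), and with the block 5 and 4 (8.4%). From day 7 to day 21 edgeR and DESeq2 called 0 members, and 0 passed unadjusted, where edgeR called 0.441% of all genes and 13.4% passed unadjusted. From day 21 to day 60 edgeR and DESeq2 again called 0 members, and 1 cytosolic and 3 mitochondrial members passed unadjusted in edgeR (5.42% of all genes), which called 0 genes of any kind. The medians of that last step were 0.30 and 0.49.

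Transcript length differs between the sets, with a median of 705 bases for cytosolic and 1221 for mitochondrial members, and short transcripts of other genes were also lower than sham on day 7. On day 7, genes outside both sets had a median log2 fold change of −2.0 up to 500 bases (n = 103), −1.63 from 500 to 700 bases (n = 272), −0.58 from 700 to 1000 bases (n = 650) and −0.24 from 1000 to 1500 bases (n = 1587), and medians above 0 beyond that. Cytosolic members in the same bins had medians of −3.48 (n = 18), −2.39 (n = 22), −1.85 (n = 22) and −2.44 (n = 12). Mitochondrial members had −2.29 (n = 3), −1.15 (n = 9), −1.19 (n = 14) and −0.56 (n = 22). In each of these 4 bins the cytosolic median was the lowest, and the mitochondrial one was below that of the other genes except from 500 to 700 bases. On day 1 the cytosolic medians of these bins were −1.72, −0.85, −0.67 and −0.76, against −1.45, −0.91, −0.35 and 0.00 for the other genes. Up to 500 bases the other genes had −0.09 on day 3, −1.54 on day 21 and −1.41 on day 60. Cytosolic members of that length had −0.44, −3.53 and −3.09. Spearman's rho of fold change with length on day 7 was 0.35 over the cytosolic members, 0.40 over the mitochondrial members and 0.08 over the other genes, as a description across genes that share the same libraries.

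After a correction for the length trend, fitted on the genes outside both sets in each library, 5 cytosolic members passed on day 1 (2 higher, 3 lower), with a median of −0.29. Of all genes 13.4% were lower on day 1 in that fit, so the cytosolic share of lower calls was below that of all genes. On days 7, 21 and 60, 33, 34 and 31 were lower and 1 higher each, with medians of −1.40, −1.57 and −1.43, beside 19.4%, 15.5% and 14.7% of all genes lower. In the mitochondrial set 15, 21 and 8 were lower, with medians of −0.38, −0.67 and −0.37. The mitochondrial share of lower calls was thus near that of all genes on day 7 and below it on day 60. On day 1, 8 mitochondrial members were then higher and 2 lower, the latter beside 13.4% of all genes. Corrected and with the replicate block, 49, 55 and 49 cytosolic and 28, 34 and 25 mitochondrial members were lower on days 7, 21 and 60. The share of all genes lower in that fit is not given here. With the block alone it was 24.8%, 21.8% and 21.1%, above the 19.4%, 15.5% and 14.7% with the correction alone. Among named calls, the correction ended those of Rps21, Rpl31 and Rps29 on day 1 (adjusted p = 0.068, 0.14 and 0.44), Rpl7l1 on day 1 (0.055), Mrps21, Mrpl30 and Mrpl34 on day 1 (0.20, 0.22 and 0.41), Rpl35a and Mrps36 on day 7 (0.11 and 0.088), Rps28 and Mrpl23 on day 21 (0.11 and 0.089), and Mrpl33 and Mrpl52 on day 60 (0.13 and 0.18). What makes short transcripts lower in these libraries was not tested.

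**Figure D5:**
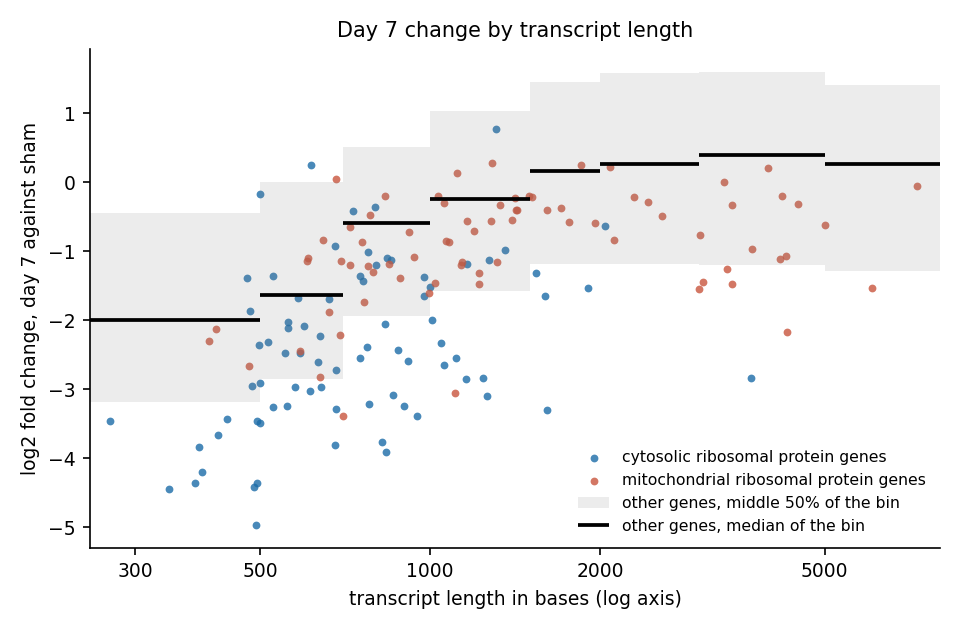
Log2 fold change of day 7 against sham for each member against transcript length (bases, log axis), without Rpl39l and Rpl3l, with black lines at the median and grey bands over the middle 50% of the other genes in each length bin. The medians of the other genes run from −2.0 up to 500 bases to 0.40 at 3000 to 5000 bases, and most cytosolic members lie below the line of their bin.

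Other genes of translation, from lists fixed by function, had calls in both directions. Of 34 ribosome biogenesis genes 25 were higher on day 1 (median 1.81), beside 16.7% of all genes, and 10 on day 3 (18% of all genes). On day 7, 9 were higher and 3 lower, where 23.2% of all genes were higher and 19.8% lower. Utp20, a processome component, rose from 2.15 ± 1.52 to 19.1 ± 3.15 CPM on day 1 (SD, n = 2), Gnl3, a nucleolar GTPase, from 8.73 ± 1.46 to 71.5 ± 29.4, and Ddx21, a nucleolar helicase, from 10.1 ± 0.932 to 73.9 ± 16.4. Of 28 initiation factor genes 12 were higher on day 1, beside 16.7% of all genes, and 7 on day 3, near the 18% of all genes, led by Eif2s1 (44.6 ± 5.41 to 195 ± 3.40 CPM), Eif6 and Eif2b3. Among 16 growth control genes, Myc, which drives ribosome synthesis, was at 3.88 ± 1.52 CPM in sham and 57.1 ± 7.34 on day 3, and Eif4ebp1, an inhibitor of initiation under mTOR control, at 10.5 ± 1.32 and 61.3 ± 18.1. Mycn was lower, at 5.83 ± 0.618 and 1.01 ± 0.271, and 4 of the 16 were higher and 3 lower on day 3, near the shares of all genes (18% and 14.2%).
The elongation factors and other messages with a pyrimidine start had few calls on days 1 and 3 and only lower ones from day 7. Of these 16, 1 was higher on day 1, beside 16.7% of all genes. On day 3, 2 were higher and 1 lower, beside 18% and 14.2% of all genes, so these early counts were not above background. On days 7 and 21, 6 were lower, and on day 60 3 were (19.8%, 15.4% and 14.8% of all genes), the last near that share. Lower on day 7 were Eef2, which moves the ribosome along the message (1236 ± 76.9 CPM in sham, 500 ± 16.6 on day 7), Eif3f and Tpt1. Gnb2l1, which encodes the small-subunit protein Rack1 and falls outside the symbol rule, was higher on day 1, at 324 ± 20.2 CPM against 125 ± 16.6 (adjusted p = 0.019).

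On the mitochondrial side, the 6 mitoribosome genes outside the symbol rule had 2, 3 and 1 lower on days 7, 21 and 60 (medians −0.88, −1.14 and −0.43), near the medians of the set. Of all genes 19.8%, 15.4% and 14.8% were lower at these times, so the day 60 count was near that share. Chchd1 was at 37.6 ± 2.53 CPM in sham and 10.0 ± 2.22 on day 21, Aurkaip1 at 108 ± 17.9 and 40.1 ± 3.63, and Gadd45gip1 at 47.4 ± 11.4 and 18.4 ± 3.72. Of 23 mitochondrial translation factors and ligases 4 were higher on day 1, about the 16.7% of all genes, with Mrrf, which recycles the ribosome, at 59.2 ± 12.5 CPM against 17.4 ± 2.34, and 1 was higher on day 7. The 82 nuclear-encoded respiratory chain subunits, the partners of what the mitochondrial ribosome makes, had 48 lower on day 1, 11 on day 3, and 65, 64 and 55 on days 7, 21 and 60. The shares of all genes lower were 13.9%, 14.2%, 19.8%, 15.4% and 14.8%, so the count of day 3 was at background. Their medians were −1.53, −0.76, −2.50, −2.58 and −1.86, nearer to the cytosolic than to the mitochondrial ribosomal proteins on days 7 to 60. The medians of this list and of the proteasome list below are not corrected for transcript length, and the part of length in them was not tested. Cox8a, a subunit of complex IV, was at 1936 ± 406 CPM in sham and 74.3 ± 17.9 on day 7. The 39 proteasome subunits, set beside them as another abundant housekeeping complex, had 15 higher and 1 lower on day 1 (16.7% and 13.9% of all genes) and 3 higher and 3 lower on day 7 (23.2% and 19.8%), with a median of 0.01 then.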

How the data were processed

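Total RNA of 12 libraries was measured, 2 in each of 6 groups taken from the sample labels. The deposited values are raw counts per gene symbol. Per the submitters' processing notes, the tools were HTSeq 0.6.1 and Bowtie2 2.3.4.2 on mm10; the annotation, the strand setting and what was done with multiply matching reads are not given in the sources used here. The table of the whole series matched the sample files in 189288 of 189288 values.

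The count model was fitted with edgeR 4.0.16 under R 4.3.3: filterByExpr with a minimum count of 10 (15635 of 15774 genes), TMM factors (0.689 to 1.22), 1 quasi-likelihood fit of all libraries (6 residual and 4.15 prior degrees of freedom, median biological coefficient of variation 0.408), and Benjamini-Hochberg adjustment over all genes tested within a comparison. Adjusted p-values printed without another tool's name come from this edgeR test, called at 0.05. CPM uses TMM-scaled totals, and percent of counts uses plain totals. With 2 libraries in each group, no exact test between 2 groups could reach that threshold. On data simulated for day 1 against sham over 15635 genes, the fit called 61 of 100 genes changed by a log2 of 3, 80 of 100 changed by 6, and 3 unchanged genes.

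Alternatives were DESeq2 1.42.0, its size factors in edgeR, no filter, the replicate number as a block, the 2 groups alone, scaling without ribosomal protein genes, each library left out, and, chosen after seeing the data, a correction for transcript length with and without the block. The length correction enters as an offset, a lowess trend (span 0.3) fitted in each library. Deviations of same-numbered libraries had correlations from 0.319 to 0.713, above 0.1 for 15 of 15 pairs of groups, so the numbers were taken to pair the libraries. The main fit holds group means only and does not use this pairing. It enters only the fits named with the replicate block. Transcript lengths, shared windows and gene overlaps come from GENCODE vM21, start windows from RefSeq (GRCm38.p6), where 62 cytosolic and 67 mitochondrial members matched.

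The members, the gene lists and the tests were chosen with earlier results of these data known. Named genes are, in each set and comparison with sham, the 3 largest changes in each direction that passed with at least 1 CPM and groups not overlapping (else the smallest p), the 4 most abundant, the 3 widest and 3 narrowest ranges, near copies, and up to 3 per other list. Rack1 was matched as Gnb2l1, and Eif3j1, Mterf3 and Mterf4 of the lists were not analysed here. Results that need certain withheld genes are not reported here.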

Additional observations from a re-analysis of the deposited data

How the results depend on the processing

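In the cytosolic set the length correction gave 5 calls on day 1, 2 on day 3, 34 on day 7, 35 on day 21, 6 in the day 3 to 7 step and 32 in any group (58 without it). In the mitochondrial set it gave 5 on day 3, 15 on day 7, 8 on day 60, 7 in the day 3 to 7 step and 25 in any group (38 without it). Without the correction 42.7% of all genes passed in any group, and the mitochondrial count was not far from that share. The share of all genes that passed in any group with the correction is not given here. With the length correction and the replicate block together, cytosolic calls were 13 on day 3 and 2 in the day 1 to 3 step, and mitochondrial calls 20, 12 and 27 on days 1, 3 and 60, 1 in the day 1 to 3 step and 19 in the day 3 to 7 step.

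With the replicate block alone, cytosolic calls were 35 on day 1, 9 on day 3, 5 in the day 1 to 3 step and 67 in the day 3 to 7 step, and mitochondrial calls 22, 7, 48 and 26 on days 1, 3, 21 and 60, 4 in the day 1 to 3 step and 34 in the day 3 to 7 step. The block ended 0 of 31 calls of named genes and added 2, Rpl31 on day 3 and Rpl7l1 on day 7, and moved no other count by over 1.5 times. DESeq2 gave 5 cytosolic calls on day 3, 7 in the day 1 to 3 step and 59 in the day 3 to 7 step, and 19, 46 and 26 mitochondrial calls on days 1, 21 and 60, 3 in the day 1 to 3 step and 30 in the day 3 to 7 step. Its size factors in edgeR gave 1 mitochondrial call on day 3 and moved the median of all genes on day 7 from 0.13 to −0.01. With only the 2 groups compared, cytosolic calls were 6 on day 1, 2 on day 3 and 0 in the day 3 to 7 step, and mitochondrial calls 2, 1 and 9 on days 1, 3 and 60 and 0 in the day 3 to 7 step.

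Leaving out 1 library at a time gave 1 to 21, 1 to 4, 37 to 60, 32 to 63 and 19 to 49 cytosolic calls on days 1, 3, 7, 21 and 60, 0 to 1 in the day 1 to 3 step, 0 to 40 in the day 3 to 7 step and 45 to 63 in any group. The mitochondrial ranges were 1 to 12, 0 to 1, 13 to 31, 10 to 37 and 3 to 20, then 0 to 2, 0 to 15 and 19 to 39. The mitochondrial any-group count of 38 was 19 and 21 without sham replicates 1 and 2, 22 without day 7 replicate 1 and 24 without either day 21 library. Both later steps gave 0 calls throughout. The shares of all genes called in these reduced fits are not given here.

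As a share of effective library size, cytosolic genes took 0.536% on day 3 and 0.195% on day 7, and mitochondrial genes 0.307%, 0.348% and 0.188% on days 1, 3 and 7. Without its most abundant member, the cytosolic share was 0.570% in sham and 0.548%, 0.128% and 0.141% on days 3, 7 and 21, and the mitochondrial share 0.384% on day 3 and 0.155% on day 21. Of 31 called results of named genes, 19 ended without at least 1 library and 13 after the length correction, and 0 of 39 named results reversed. The causes were not tested. Rpl39l and Rpl3l stayed under 1 CPM in every library, with too few counts for a fold.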

Other observations

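Replicate 1 and replicate 2 of a group, which differ 6.30 to 9.63 times in depth, also differed in a repeated way for some members. The sign of replicate 2 minus replicate 1 in log2 CPM was the same in all 6 groups for 28 of 80 cytosolic members (18 higher in replicate 2, 10 lower) and for 23 of 76 mitochondrial members, beside 25.2% of all genes. Rpl34 was at 0.299 and 17.3 CPM in the sham libraries, 1.83 and 15 at day 1 and 0.224 and 5.37 at day 21, a median ratio of 18.8 between replicates. Rps2, a small-subunit protein near the entry of the messenger RNA, was at 86.5 and 300 CPM in sham and 28.9 and 106 at day 7. Rpl5, which with Rpl11 binds the p53 regulator Mdm2, was at 0.896 and 6.56 CPM in sham and 0.470 and 4.29 at day 7. Rps29 was lower in replicate 2 in each group, at 18.5 and 8.08 CPM in sham. The share of windows held by other genes was 50.6% for Rpl34, 79.0% for Rps2, 48.5% for Rpl5 and 35.8% for Rps29, and across the 80 cytosolic members its Spearman's rho with the median replicate difference was 0.35, against 0.06 across the 76 mitochondrial members. Rpl34, Rps2, Rpl5 and Rps29 were chosen after their values were seen. Without the replicate block Rpl34, Rps2 and Rpl5 passed at no time against sham. With it Rps2 was lower on day 7 (−1.54 ± 0.30, adjusted p = 0.0017), day 21 (−1.66 ± 0.30, 0.0016) and day 60 (−1.38 ± 0.30, 0.0047), and Rpl34 and Rpl5 passed at no time, with day 7 values of −1.85 ± 0.78 (0.067) and −0.71 ± 0.54 (0.29).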
